A study of Mus musculus with 2 samples.

Results

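The genes described here are 10 enzymes, transporters and cofactors that build the lipid and protein barrier of the epidermis: Abca12, Alox12b, Aloxe3, Ugcg, Sptlc2, Degs2, Pnpla1, Abhd5, Tgm1 and Tgm3. Every probe set that the platform annotation pairs with one of these symbols was taken, which gave 18 of the 45101 probe sets on the array and 10 of 18194 named genes. A laser was used to cut the samples, the bulge (stem cell niche of the hair follicle) and the hairshaft, out of eosin-stained frozen skin of C57Bl6 mice aged 21 days, with no treatment named. There was 1 array for each structure. How many animals were used, and their sex and the site on the body, is not stated in the labels. All values are log2 values from GCRMA, a method that corrects background by probe sequence, and all differences are bulge minus hairshaft. With 1 array each there is no replicate spread, so no test was run and each fold describes these 2 arrays only.

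The water barrier of the skin rests on ceramides, lipids made from serine and fatty acids in the living epidermis. Keratinocytes attach very long fatty acids and linoleate to the ceramide, add glucose, and load the product into lamellar granules that are released near the skin surface. Lipoxygenases oxidise the linoleate, so that the ceramide can be bound to the cornified envelope, a shell of proteins cross-linked by transglutaminases.

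The barrier genes lay close to equal on both arrays or toward the hairshaft. Abca12, the lipid transporter of lamellar granules, stood far from the others at 10.03-fold lower in the bulge. Pnpla1, which makes the linoleate-bearing ceramide, was 2.32-fold lower in the bulge, the lipoxygenase Aloxe3 1.63-fold and the lipase cofactor Abhd5 1.53-fold. Alox12b, Sptlc2, Degs2, Ugcg, Tgm1 and Tgm3 were under 1.5-fold apart by their brightest probe set. In such bulk samples, fewer cells of a type and less RNA per cell cannot be told apart.

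A probe set was counted as measured when it exceeded a background floor on at least 1 array. The floor was taken from 80 olfactory and vomeronasal receptor probe sets as their 95th percentile, which was 2.68 on both arrays. Of the 18 barrier probe sets 15 passed, and 1447548_at of Abhd5, 1454257_at of Sptlc2 and 1440150_at of Tgm3 did not. Each of the 10 genes kept at least 1 probe set.

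Among the 15, the difference was below 0 for 9, against 48% of the 28721 probe sets above the floor, above 0 for 5, against 40.7%, and exactly 0 for 1. Toward the hairshaft, 4 of the 15 passed 2-fold, against 7.37% of all (8.32% without probe sets identical on both arrays). Toward the bulge, 0 passed, against 9.52% of all (10.7% without the identical ones). At 1.5-fold the counts were 7 toward the hairshaft, against 16.5%, and 0 toward the bulge, against 16.1%. The median difference of the 15 was -0.38, beside 0.00 over all probe sets.

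By gene, with the brightest probe set standing for each, 6 of the 10 lay toward the hairshaft, against 46.6% of 13329 genes above the floor, 3 toward the bulge, against 44.9%, and Tgm3 was equal. Abca12 and Pnpla1, 2 of the 10, passed 2-fold toward the hairshaft, against 4.91% of genes (5.38% without identical probe sets). None passed it toward the bulge, against 11.4% (12.5% without identical probe sets). At 1.5-fold, Aloxe3 and Abhd5 joined them, making 4 of 10 against 13.8%, while 0 passed toward the bulge against 18.5%. With 10 genes these shares are coarse, and the sides of Sptlc2 and Ugcg rest on the choice of probe set, as theirs differ in sign.

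**Figure D1:**
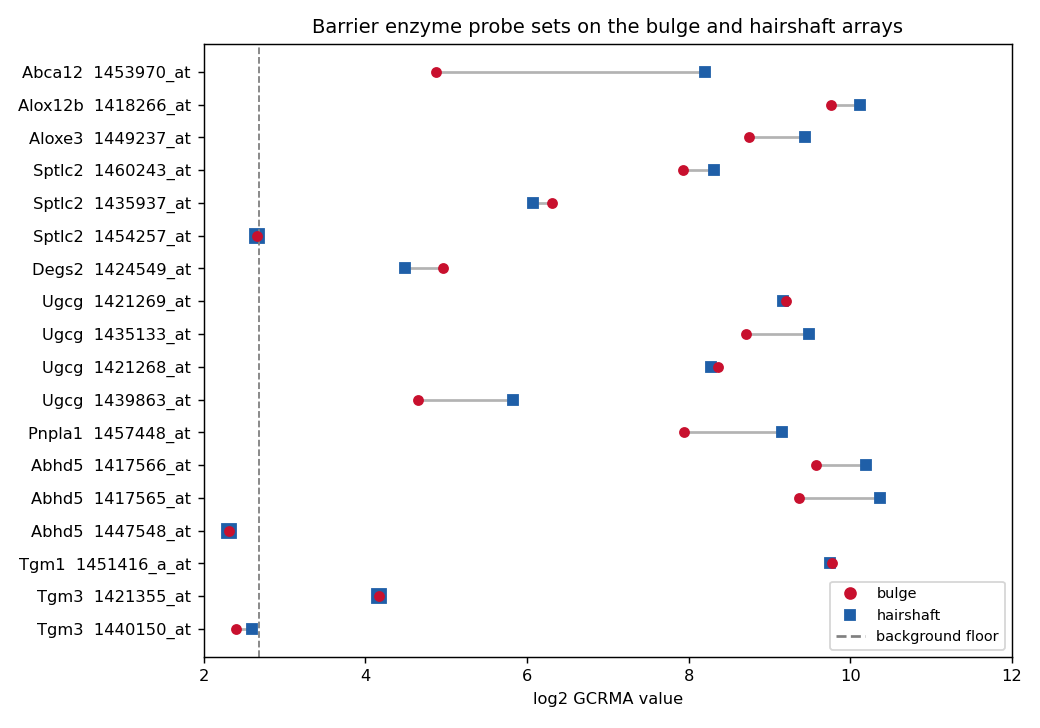
Values of the 18 barrier probe sets (rows) on the bulge array (red circles) and the hairshaft array (blue squares), in log2 GCRMA units, with the background floor of 2.68 as a dashed line. Abca12 has the widest gap, with its circle at 4.87 and its square at 8.20, while the markers of Tgm1 at 9.77 and 9.75 nearly coincide.

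Probe sets of Abca12, Pnpla1, Abhd5 and Ugcg passed 2-fold toward the hairshaft, and the promoters of these 4 genes are shown for that reason, although for Ugcg only the dimmest of 4 probe sets passed. Each is the 250 bases before the RefSeq start in GRCm38.p6, in lower case, and capitals mark matches on either strand to the short motifs listed after them.
Abca12 promoter, chr1:71414911-71415160, minus strand: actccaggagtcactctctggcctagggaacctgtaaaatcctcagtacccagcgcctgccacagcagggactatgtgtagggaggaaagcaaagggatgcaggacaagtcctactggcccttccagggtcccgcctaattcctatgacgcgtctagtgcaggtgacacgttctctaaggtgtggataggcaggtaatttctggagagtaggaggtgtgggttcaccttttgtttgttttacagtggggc
Pnpla1 promoter, chr17:28858161-28858410, plus strand: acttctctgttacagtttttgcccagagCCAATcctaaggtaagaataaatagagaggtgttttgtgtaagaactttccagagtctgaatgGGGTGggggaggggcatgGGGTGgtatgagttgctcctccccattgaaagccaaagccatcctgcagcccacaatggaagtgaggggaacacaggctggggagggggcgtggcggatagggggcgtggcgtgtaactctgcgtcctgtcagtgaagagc
Abhd5 promoter, chr9:122351366-122351615, plus strand: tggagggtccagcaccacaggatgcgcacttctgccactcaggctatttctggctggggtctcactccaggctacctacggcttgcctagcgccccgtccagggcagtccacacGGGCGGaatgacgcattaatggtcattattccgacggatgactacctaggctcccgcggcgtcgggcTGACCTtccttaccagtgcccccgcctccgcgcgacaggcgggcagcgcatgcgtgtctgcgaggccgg
Ugcg promoter, chr4:59189300-59189549, plus strand: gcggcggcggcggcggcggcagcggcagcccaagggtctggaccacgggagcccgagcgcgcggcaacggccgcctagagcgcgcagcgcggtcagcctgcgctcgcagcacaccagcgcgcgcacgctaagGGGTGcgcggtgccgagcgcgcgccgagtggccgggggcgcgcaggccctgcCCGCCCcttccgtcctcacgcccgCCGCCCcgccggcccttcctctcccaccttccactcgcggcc

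The GC content of these windows was 53.2% for Abca12, 54% for Pnpla1, 64.8% for Abhd5 and 80.4% for Ugcg. Over all 32851 promoter windows the median was 52.4%, with 38.8% at the 10th and 69.2% at the 90th percentile, so Ugcg lay above the 90th percentile. The motifs searched were AACCNGTT of grainyhead-like factors, CACCC of Kruppel-like factors, TGANTCA of AP-1, GGGCGG of SP1, CCAAT, the TATA box TATAAA, and the nuclear receptor half-site AGGTCA. The Abca12 window held none of them. Pnpla1 held 2 CACCC and 1 CCAAT, Abhd5 1 GGGCGG and 1 AGGTCA, and Ugcg 1 CACCC and 2 GGGCGG, with no overlap between motifs.

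Most of these motifs are common: 52% of all windows held CACCC, 33.8% CCAAT, 32.7% GGGCGG and 14% AGGTCA. In all, 9 of the 10 barrier genes had a window, and Tgm1 had windows for 2 starts. CACCC was found for 6 of the 9 genes, GGGCGG for 6, CCAAT for 4 and AGGTCA for 3. TATAAA, in 12.4% of all windows, was found for Tgm3 alone among the barrier genes, 22 bases before its start, and in the Tgm3 window 2 pairs of motifs overlapped. AACCNGTT (1.79% of all windows) and TGANTCA (6.75%) were found for none of them. No match says only that these letters are not in this window.

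Abca12 fills lamellar granules with glucosylceramide, and its loss causes harlequin ichthyosis in humans. Its probe set 1453970_at read 4.87 in the bulge against 8.20 in the hairshaft, a difference of -3.33. Both values also exceeded a stricter floor of 4.21, set at the 99th percentile of those receptors. Only 15 of the 13329 genes lay further toward the hairshaft. Of the 3504 probe sets within 0.5 log2 units of its mean, 0.257% lay as far or further in this direction, so few probe sets of like brightness matched it.

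The difference of Abca12 ran from -3.44 with quantile normalization to -2.77 with an offset of 16 on the linear scale. The gene has 1 probe set on the array, so the value rests on those probes. Its neighbours in gene order on chromosome 1 did not share it: Atic differed by -0.11 and Fn1 by 0.33, while Bard1 and Vwc2l were not above the floor. Vps33b, which lamellar granules need for their assembly, read 5.78 in the bulge against 7.40 in the hairshaft, and Snap29, a membrane fusion protein, read 5.73 in the bulge against 7.01 in the hairshaft. Of the 13 other measured genes in the list of ABCA transporters and granule traffic, 3 passed 2-fold toward the hairshaft (Vps33b, Snap29 and Abca4). Toward the bulge 2 passed, Abca1 (1.24) and Abca8a (3.42). The dimmer probe sets of Abca1 differed by 0.78 and 0.55, and with the mean of each gene's probe sets the 2 became 1.

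**Figure D2:**
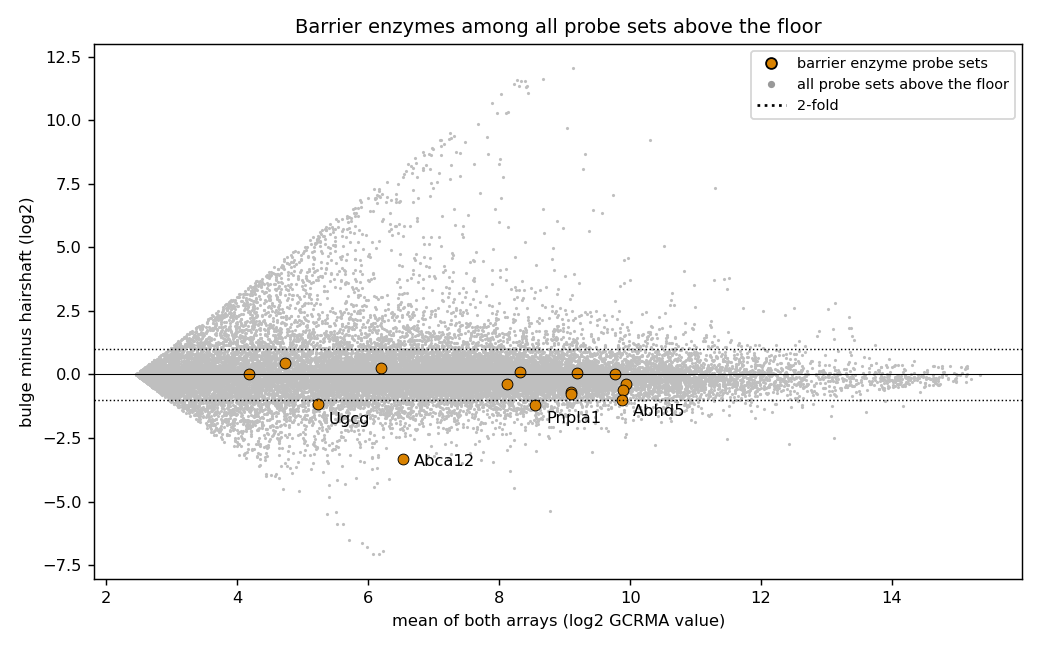
Difference between the arrays (bulge minus hairshaft, log2) against the mean of both arrays (log2 GCRMA value) for the 28721 probe sets above the floor (grey) and the 15 barrier probe sets among them (orange), with dotted lines at 2-fold. Abca12 lies at -3.33, and the labelled probe sets of Pnpla1, Ugcg and Abhd5 lie at -1.22, -1.17 and -1.005.

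Pnpla1 transfers linoleate from triglyceride to the omega end of ceramide, the step that creates acylceramide. Its probe set 1457448_at read 7.94 in the bulge against 9.16 in the hairshaft, a difference of -1.22. Of 3028 probe sets of like brightness 4.1% lay as far or further toward the hairshaft, and 407 of the 13329 genes lay further. The value stayed between -1.23 and -1.16 under the alternatives. Its measured neighbours on chromosome 17 were closer to 0, with Brpf3 at -0.39 and Mapk13 at -0.68, while Bnip5 and Pxt1 were not above the floor.

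Abhd5 hands triglyceride to Pnpla1 and also activates the fat cell lipase Pnpla2. Its brightest probe set 1417566_at read 9.58 in the bulge against 10.19 in the hairshaft, a difference of -0.61, and 1417565_at read 9.37 in the bulge against 10.37 in the hairshaft, a difference of -1.005. Both were lower in the bulge, and the second was only just past the limit at 2.01-fold, a fold that 3.79% of probe sets of like brightness reached or passed toward the hairshaft. It came to -0.93 with a loess trend removed and to -0.99 with the offset of 16, both inside the limit. The spread of 0.39 between them was small for the array, as 60.6% of genes with at least 2 measured probe sets had one as wide or wider. The third, 1447548_at, had 2.32 on both arrays. Of the measured neighbours of Abhd5 on chromosome 9, Ano10 lay close to it at -0.58, while Snrk (0.41) and Tcaim (1.38) lay toward the bulge.

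Pnpla2, the lipase that Abhd5 activates, lay on the other side. It read 9.90 in the bulge against 8.06 in the hairshaft, a difference of 1.83 (0.92 with the mean of its probe sets), and Pnpla5, of the same family, 9.49 in the bulge against 3.16 in the hairshaft. Of 14 measured genes of neutral lipid storage and hydrolysis 12 passed 2-fold toward the bulge and 0 toward the hairshaft, with a median of 2.89. All 8 measured adipocyte markers and 7 of 7 sebaceous gland markers passed 2-fold toward the bulge, and their part in these differences was not tested. The lists share genes: of the neutral lipid genes, Cidec was also counted as an adipocyte marker and Cidea as a sebaceous gland marker.

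Sptlc2 is a catalytic subunit of serine palmitoyltransferase, which starts ceramide synthesis. Its probe set 1460243_at read 7.93 in the bulge against 8.31 in the hairshaft, and 1435937_at read 6.31 in the bulge against 6.08 in the hairshaft. These differences of -0.38 and 0.24 have opposite signs, so no direction can be given, and the mean of the probe sets was -0.05. The third, 1454257_at, had 2.65 on both arrays, below the floor. Of the other subunits, Sptlc1 differed by -0.29 with its brightest probe set and by 0.17 with the next, again with opposite signs, and Sptlc3 by -0.52 with its brightest. The measured neighbours of Sptlc2 on chromosome 12 lay toward the hairshaft: Ahsa1 (-0.48), Alkbh1 (-0.76) and, near the floor, Nrp (-0.23).

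Degs2, the desaturase and hydroxylase that makes phytoceramides, was the member furthest toward the bulge. It read 4.96 in the bulge against 4.50 in the hairshaft, a difference of 0.46. Of probe sets of like brightness 30.3% lay as far or further, and the difference was 0.28 with quantile normalization. The neighbours of Degs2 on chromosome 12 lay on both sides, with Evl at 0.43, Eml1 at 1.17, Yy1 at -0.36 and Slc25a29 at -0.69. The related Degs1 differed by -0.08. Among the ceramide synthases, which join fatty acid and backbone between these steps, Cers3 of the epidermis differed by -0.81, while Cers4 read 11.50 in the bulge against 4.56 in the hairshaft. Of the 12 other measured genes in the list of ceramide backbone synthesis, 4 passed 2-fold toward the bulge and 0 toward the hairshaft. The 4 were Cers4, Fa2h (6.36), Cers5 (2.40) and Cers2 (1.13). The other 8 lay toward the hairshaft by less than 2-fold.

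Ugcg adds the glucose that allows ceramide to be packed into granules, and its 4 probe sets disagreed. The brightest, 1421269_at, read 9.21 in the bulge against 9.17 in the hairshaft, and 1421268_at read 8.37 in the bulge against 8.27 in the hairshaft. Both stand for the same accession in the annotation, and both were nearly equal, with differences of 0.04 and 0.09. In contrast, 1435133_at read 8.71 in the bulge against 9.48 in the hairshaft, and 1439863_at read 4.65 in the bulge against 5.82 in the hairshaft. Those differences were -0.77 and -1.17, so the direction of Ugcg depends on the probe set. With an offset of 16 on the linear scale 1439863_at came to -0.82, under 2-fold. The spread of 1.27 compares with a median of 0.53 over 6256 genes, 18% of which had one as wide or wider. With the mean of its probe sets, the difference of Ugcg was -0.45 in place of 0.04. Its measured neighbours on chromosome 4 were Gng10 (-0.65) and Ptbp3 (-0.24).

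Alox12b and Aloxe3 act in sequence on the linoleate of acylceramide. Alox12b read 9.76 in the bulge against 10.12 in the hairshaft, a difference of -0.36. Aloxe3 read 8.74 in the bulge against 9.44 in the hairshaft, a difference of -0.70. Both lay toward the hairshaft, and of probe sets of like brightness 29.4% lay as far or further for Alox12b and 12.4% for Aloxe3. Alternatives kept Alox12b between -0.38 and -0.29 and Aloxe3 between -0.72 and -0.65.

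These genes lie side by side on chromosome 11, with Alox8 and Hes7 as their outer neighbours. Alox8 read 2.75 in the bulge against 2.69 in the hairshaft, next to the floor, and Hes7 read 2.65 in the bulge against 2.69 in the hairshaft. Per1, a clock gene beyond Hes7, was higher in the bulge by 2.15. Of relatives with epidermal roles, Alox12e differed by -0.93 and Sdr9c7, the dehydrogenase that follows Aloxe3, by -0.92. Alox12 differed by -1.44, or by -0.72 with the mean of its probe sets. Of the 11 other measured genes in the lipoxygenase list, Alox12 alone passed 2-fold toward the hairshaft and Ephx2 (3.42) alone toward the bulge. By any amount, 6 of the 11 lay toward the hairshaft, 4 toward the bulge and 1 was equal.

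Tgm1 is the membrane-bound transglutaminase of keratinocytes, whose loss causes lamellar ichthyosis in humans. It read 9.77 in the bulge against 9.75 in the hairshaft, a difference of 0.02 that stayed between 0.00 and 0.08 under the alternatives. Without replicates this does not show that the structures had equal levels. The measured neighbours of Tgm1 on chromosome 14 were Tinf2 (0.18), Rabggta (-0.31) and Dhrs1 (-0.10). Involucrin (Ivl), a protein that Tgm1 cross-links, read 10.71 in the bulge against 12.11 in the hairshaft, and loricrin (Lor) read 14.97 in the bulge against 15.01 in the hairshaft. Involucrin was the furthest toward the hairshaft of 30 measured genes in the list of envelope substrates. Of the 30, 3 passed 2-fold toward the hairshaft and 5 toward the bulge, among them trichohyalin (5.83) and Sprr2d (3.22). With the stricter floor the 5 became 3. The list median was -0.21.

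Tgm3 cross-links proteins of the upper epidermis and, in the hair follicle, trichohyalin. Its probe set 1421355_at had 4.17 on both arrays, identical to the last deposited digit. Identical values were common: 17293 of 45101 probe sets (38.3%) had them, as did 14.6% of those above the floor within 0.5 log2 units of Tgm3. Against the stricter floor of 4.21 Tgm3 was not above background, and its other probe set 1440150_at, with 2.40 in the bulge against 2.60 in the hairshaft, was below the floor. The difference of 0 therefore does not show equal levels. Of the neighbours of Tgm3 on chromosome 2, only Stk35 was above the floor, with a difference of 1.46. Trichohyalin (Tchh) read 9.55 in the bulge against 3.73 in the hairshaft, and the relative Tgm2 10.19 in the bulge against 4.68 in the hairshaft. Of the 5 other measured genes in the transglutaminase list, Tgm2 alone passed 2-fold. By any amount, 3 of the 5 lay toward the hairshaft, Tgm5 (-0.30) among them, and 1 was equal. Inner root sheath genes, trichohyalin among them, passed 2-fold toward the bulge for 6 of 9.

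**Figure D3:**
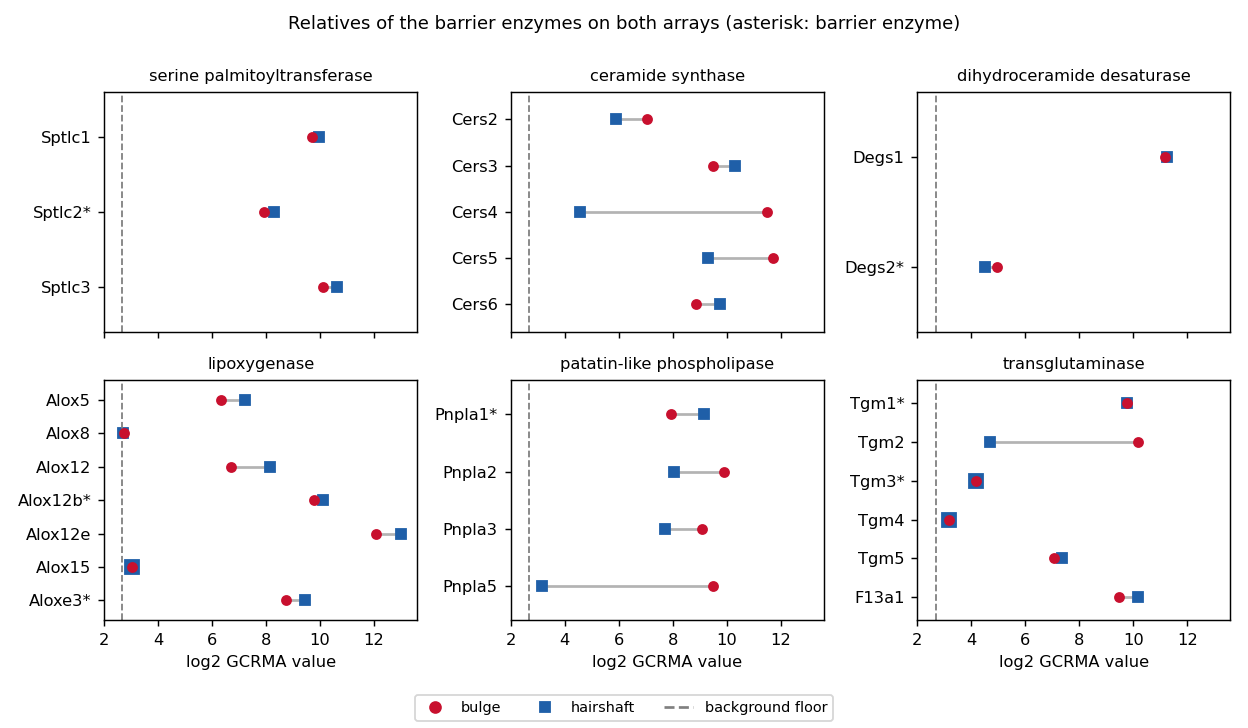
Values on the bulge array (red circles) and the hairshaft array (blue squares), in log2 GCRMA units, for barrier enzymes (asterisks) and measured relatives in 6 enzyme families, with the floor as a dashed line. Gaps toward the bulge are wide in Cers4 (6.95), Pnpla5 (6.33) and Tgm2 (5.51), while Tgm1, Alox12b and Sptlc2 are nearly closed.

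Around the members, 142 other genes of 9 barrier pathway lists were above the floor, of which 38 (26.8%) passed 2-fold toward the bulge, against 11.4% of all genes, and 10 (7.04%) toward the hairshaft, against 4.91%. Their median was -0.07, beside 0.00 over all genes. Of the 38, 12 were in the list of neutral lipid storage and hydrolysis, where 14 genes were measured. The 10 toward the hairshaft were Abca4, Alox12, Cdsn, Hacd4, Ivl, Lce1c, Lipk, Lipm, Snap29 and Vps33b. The call of Abca4, at 2.94 in the bulge against 4.23 in the hairshaft, ended with the stricter floor (-0.01), with each array's overall median as the floor (-0.70) and with the offset (-0.55). In the fatty acid and acylceramide list that holds Pnpla1 and Abhd5, 7 of the 20 other genes passed 2-fold toward the bulge and 3 toward the hairshaft, with a median of 0.65. Toward the bulge were the fatty acid elongases Elovl5 (3.53), Elovl6 (2.48) and Elovl4 (1.35), the acyl-CoA synthetase Acsl4 (2.96) and the reductase Hsd17b12 (1.93). Toward the hairshaft were Hacd4 (-1.89) and the lipases Lipk (-1.45) and Lipm (-1.10) of the upper epidermis.

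**Figure D4:**
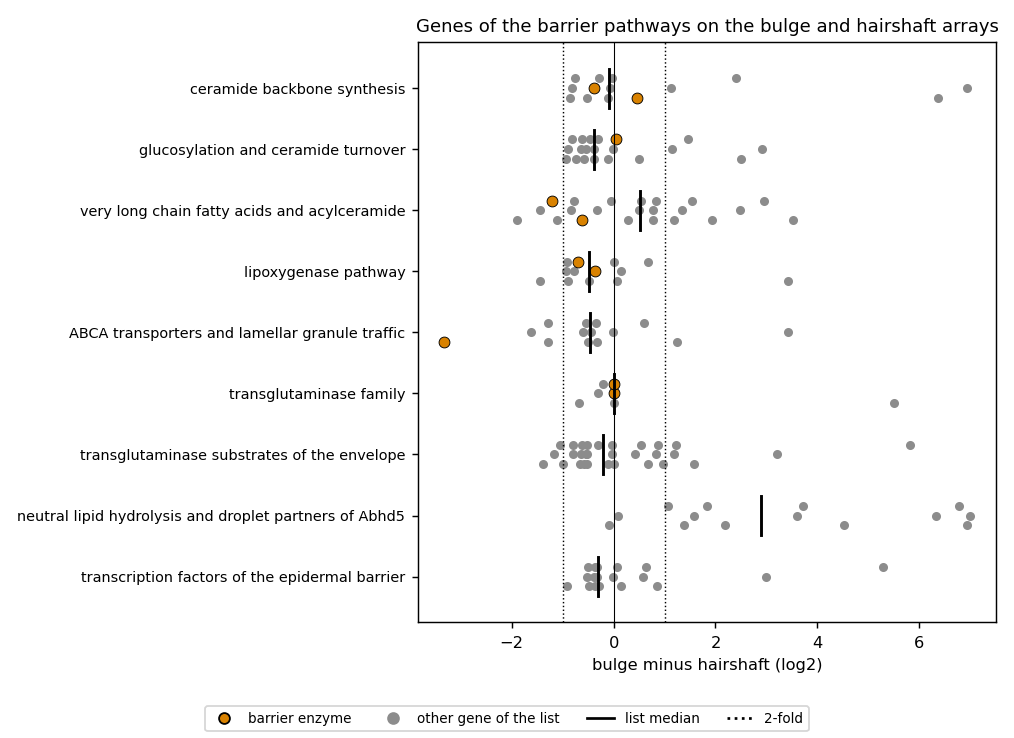
Differences between the arrays (bulge minus hairshaft, log2) for genes above the floor in 9 pathway lists (rows), with barrier enzymes in orange, other genes in grey, the list median as a black bar and 2-fold as dotted lines. Neutral lipid genes lie on the bulge side with a median of 2.89, and the lipoxygenase list has a median of -0.48.

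Of the markers of suprabasal keratinocytes, which make the barrier, 9 of 9 measured were under 2-fold apart, but Krt2, at 2.89 in the bulge against 2.88 in the hairshaft, lay under the stricter floor. By any amount, 7 of the 9 lay toward the hairshaft and 2 toward the bulge. Their differences ran from -0.84 (Dsc1) to 0.07. The 9 had summed linear signals of 178000 in the bulge against 191000 in the hairshaft and none at or below the floor. Markers of sebaceous gland summed to 37300 in the bulge against 4590 in the hairshaft, with Mc5r under the floor throughout, those of adipocytes to 51900 in the bulge against 196 in the hairshaft, and those of skeletal muscle, 10 of 10 past 2-fold toward the bulge, to 192000 in the bulge against 65.9 in the hairshaft. In the hairshaft, 5 adipocyte markers (Adipoq, Cidec, Lep, Retn and Pck1) and 4 muscle markers (Tnnc2, Myl1, Atp2a1 and Ttn) were at or below the floor. Of the 6 fibroblast markers 5 lay toward the hairshaft, 3 of them past 2-fold, and 1 toward the bulge. They had a median of -1.004, sums of 34000 in the bulge against 82500 in the hairshaft, Col1a1 at -2.49 and none at or below the floor. Of the 7 immune markers 5 lay toward the hairshaft, 1 of them (Cd3e, -1.48) past 2-fold, and 2 toward the bulge. They had a median of -0.71, sums of 15600 in the bulge against 17300 in the hairshaft and none at or below the floor. As to the labels, 9 of 10 bulge stem cell markers passed 2-fold toward the bulge, but the hair shaft keratins went against the hairshaft label. Of 10 above the floor 6 passed 2-fold toward the bulge, led by Krt33a (4.40), Krt31 (3.44) and Krt86 (2.75), and 0 lay toward the hairshaft by any amount. In the hairshaft 6 of 12 were at or below the floor (Krt31, Krt33a, Krt35, Krt82, Krt84 and Krt86), and the 12 summed to 453 in the bulge against 129 in the hairshaft. The part of these cell types in the lower bulge values of Abca12, Pnpla1, Aloxe3 and Abhd5, or in the higher ones of Cers4, Tgm2 and Tchh, was not tested.

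**Figure D5:**
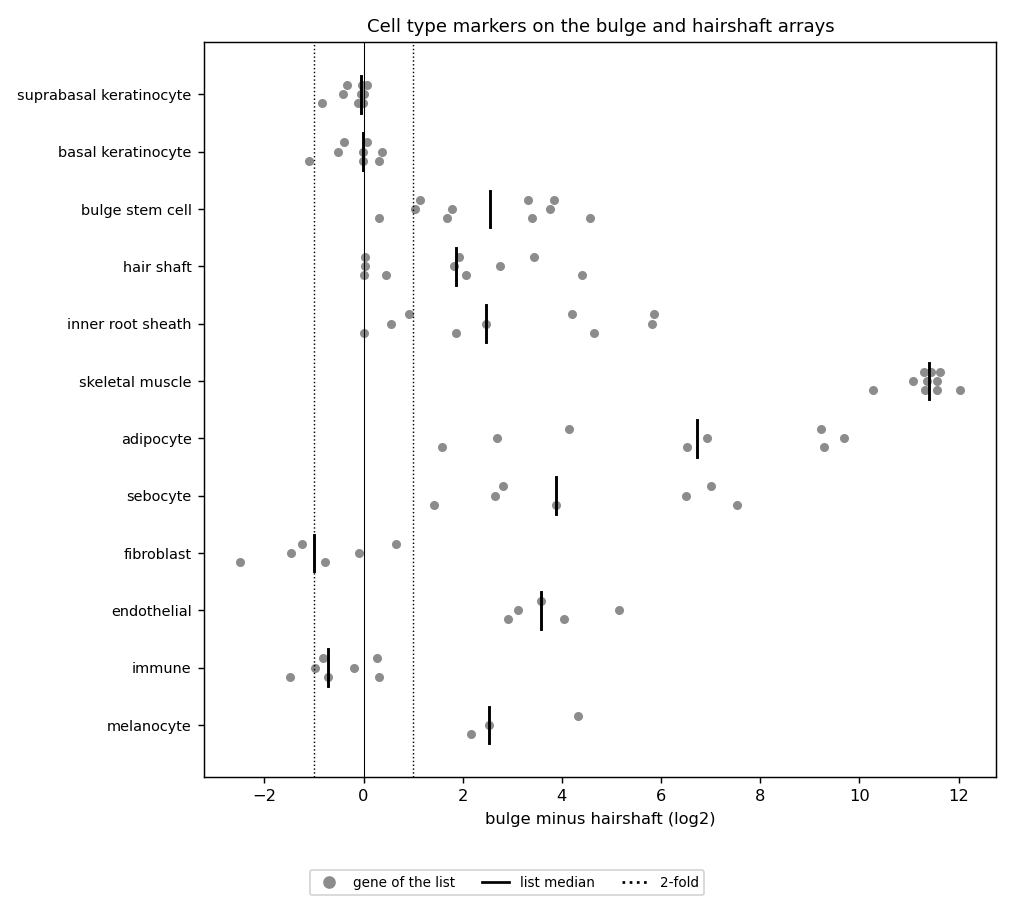
Differences between the arrays (bulge minus hairshaft, log2) for markers above the floor in 12 cell type lists (rows), with the list median as a black bar and 2-fold as dotted lines. Suprabasal keratinocyte markers have a median of -0.04, while skeletal muscle (11.40), adipocyte (6.73) and sebocyte (3.89) medians lie far on the bulge side.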

How the data were processed

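Bulge and hairshaft were laser-dissected and 30 ng of RNA was amplified, per the labels' protocols. The authors deposited log2 values made with GCRMA, per the submitters' processing notes, whose version and settings were not recorded there. That they are on a log2 scale was inferred from their range, 2.23 to 15.36. Sorted columns differed by at most 0.19, so none was rescaled, and 0 columns were left unused. The platform annotation gave 1 symbol for 34958 probe sets, several for 932 and none for 9211. No member probe set had several. Symbols were updated through RefSeq of GRCm38.p6 for 34754, and promoters came from the same source. Each gene took its probe set with the highest mean.

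A value at or below the floor was set to it. With 1 array per structure 0 residual degrees of freedom remain, so there is no SD, test or p-value, and the number of arrays limits the precision. Besides the members, genes were eligible to be named if they were among the 4 largest per direction past 2-fold in a pathway list, preset relatives of the members, or among the 3 largest of a marker list. Neighbours in gene order, lists of genes at the floor and the other genes named were chosen after their values were seen. Members and lists were chosen with earlier results of these data known. Listed genes without a probe set of 1 symbol were not analysed here. The counting was tested on simulated data. The simulated shifts were larger than the difference of any member but Abca12, in genes brighter than Degs2 and Tgm3. That test therefore does not cover smaller differences or dimmer genes. Besides 10 other settings, 1 was added after seeing the data. Software was Python 3.11.15 with numpy 2.4.6, pandas 2.3.3, matplotlib 3.10.9 and statsmodels 0.14.6.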

Additional observations from a re-analysis of the deposited data

How the results depend on the processing

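None of the 229 alternative values of the members and their probe sets moved by over 1.5-fold, and no difference past 2-fold changed sign among the genes named. Many of the 229 could not move, so their number overstates the check. The median difference was already 0, and a changed floor leaves values above it as they were. A gene with 1 probe set was also counted both as gene and as probe set. The 4 member probe sets past 2-fold toward the hairshaft became 2 with the offset of 16 and 7 at the 1.5-fold limit. By gene, 2 became 4 at that limit, and the 10 other pathway genes became 35. The counts of 0 members toward the bulge stayed 0 under each alternative run. Of 849 alternative values of the other named genes 88 moved by over 1.5-fold, 84 of them to a smaller difference. Tgm1 had no value with plain probe sets only, and Tgm3 none with the stricter floor or without identical probe sets, the alternative added after seeing the data. No paired analysis was possible because each structure has 1 array, and leaving out a replicate was not possible for the same reason. Signal not far above background limits Degs2, Tgm3, the dimmest probe set of Ugcg and the bulge value of Abca12 (4.87).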

Other observations

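Relatives of the members lay on opposite sides in several families: Cers3 (-0.81) and Cers4 (6.95), Pnpla1 (-1.22) and Pnpla5 (6.33), Abca12 (-3.33) and Abca8a (3.42). Of the 28721 probe sets above the floor, 3289 had the same value on both arrays to the last deposited digit, Tgm3 at 4.17 among them. The positions of the Ugcg probe sets in the transcript were not analysed here.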
